A study of Homo sapiens with 6 samples.

Results

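The MYC, MAX and MXD network was taken as 10 genes named by symbol, namely MYC, MYCN, MYCL, MAX, MXD1, MXD3, MXD4, MXI1, MNT and MLX, out of 19223 gene symbols in the deposited table. The RNA came from LoVo, an established human colorectal adenocarcinoma line. 3 Control libraries came from LoVo cells given vehicle without drug, and 3 DCC-2036 libraries from cells given 2.5 µM DCC-2036 (rebastinib), a tyrosine kinase inhibitor, both for 48 h per the labels. A figure legend of the study gives a shorter treatment, and the labels were followed. Every library therefore comes from 1 line, and nothing in the labels says whether the libraries of a group came from separate cultures, so p-values measure only the spread between these libraries, which may be technical.

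The proteins of this network share a helix-loop-helix and leucine zipper fold with which they pair. MYC, MYCN and MYCL each pair with MAX, bind the E-box CACGTG and activate genes of growth, ribosome assembly and division. The MXD proteins (MXI1 is one of them) and MNT compete for MAX and for the same sites and recruit SIN3 and histone deacetylases, which represses these genes. MLX is a second hub: it pairs with MNT, MXD1 and MXD4 and also with MondoA (gene MLXIP) and ChREBP (MLXIPL), which respond to glucose metabolites and activate TXNIP and ARRDC4. In the colon, MYC is a known target of Wnt signalling and is commonly high in colorectal tumours.

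DCC-2036 left the RNA of MYC itself without a called change, while the shared partners moved apart. MAX and the MAX-binding repressor MXI1 rose, and MYCL and the second hub MLX fell. MNT and MXD4 separated between the groups by less and did not pass the test, MXD1 and the main MXD3 transcript overlapped between groups, and MYCN was at or near 0. Of the 10 members, 9 reached a signal of 10 in 3 or more libraries and were tested with limma on log2(value + 1), with Benjamini-Hochberg adjustment over 12725 genes and calls at an adjusted p under 0.01. Called higher were 2 of the 9 (22.2%), against 19.2% of all genes tested, and called lower were 2 (22.2%), against 22.7% of all genes. The 3 values of each group did not overlap in 6 of the 9, against 71.1% of all genes. These shares are near the background, so the results below concern single members and not the network as a whole. The median log2 fold change was 0.12 over the 9 and -0.09 over all genes tested.

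**Figure D1:**
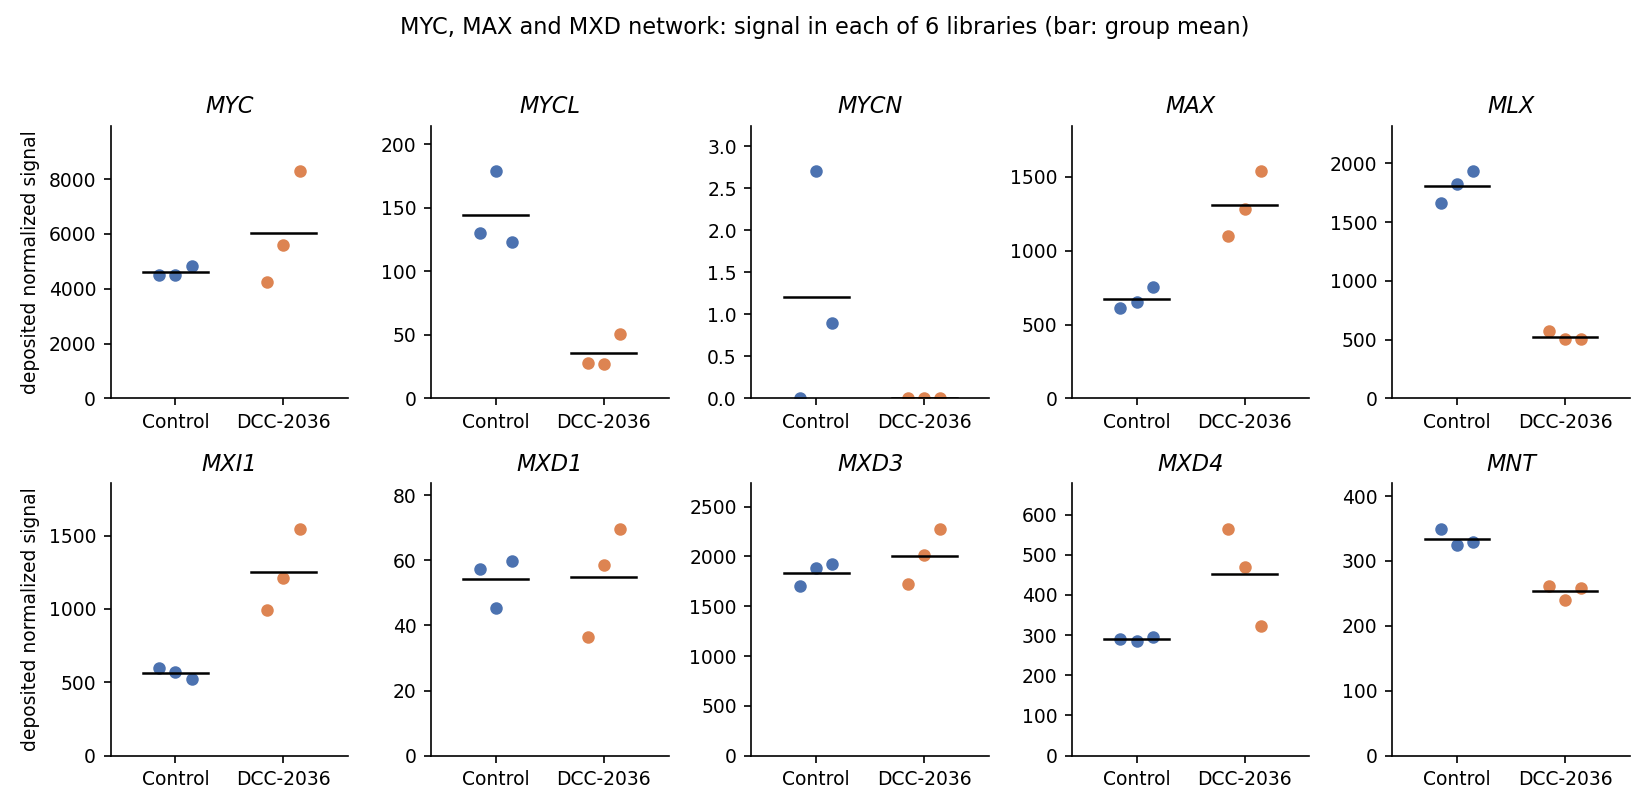
Deposited normalized signal (vertical axis, linear from 0, a separate scale for each gene) of the 10 network members in 3 Control and 3 DCC-2036 libraries, with 1 point per library and a bar at the group mean. MAX and MXI1 lie higher and MYCL and MLX lower in every DCC-2036 library than in any Control library, whereas MYC overlaps, with its highest point, 8283, in DCC-2036 replicate 3.

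The deposited values are a normalized signal, so read depth per library is unknown. Their column totals were 38997229 to 40587145 in Control and 43279603 to 48023306 with DCC-2036. Across all genes tested, the median SD of the log2 values was 0.101 in Control and 0.228 with DCC-2036. If the libraries were instead given the same total, the all-gene median went from -0.09 to -0.28, which took the share of higher genes among all called genes from 45.8% to 33.6%; that share was 50.7% with median-of-ratios scaling and 54.5% with upper-quartile scaling. The line's epithelial markers EPCAM (signal 4524 to 5961), KRT8, KRT18 and KRT19 were high in all 6 libraries and the colon factor CDX2 ranged from 213.1 to 364.8, but CDX1 was 0, VIL1 at most 4.1 and LGALS4 at most 7.2. Within the epithelial list, CDH1 and KRT8 rose with DCC-2036 (log2 fold changes 1.10 and 0.84) and KRT20 fell (-1.15). The leukocyte gene PTPRC was 0 and the endothelial genes PECAM1 and CDH5 were at most 5.1 and 2.1. CD68 ranged from 205.4 to 279.7 and COL1A1 from 353.3 to 520.1, while COL1A2 did not exceed 12.4.

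MYC, the transcription factor at the centre of the network, had a signal of 4483, 4499 and 4813 in Control and of 4246, 5601 and 8283 with DCC-2036. The treated libraries spanned the Control values, with 1 below all of them and 2 above. The mean rose from 4598 ± 186 to 6043 ± 2050 (SD, n = 3 each), but the log2 fold change of 0.34 (95% confidence interval -0.23 to 0.91) had an adjusted p of 0.249 (limma). It dropped to 0.086 without DCC-2036 replicate 3 and to 0.15 at equal library totals, and reached 0.57 with DCC-2036 replicate 1 left out (adjusted p = 0.0339). The interval leaves room for either direction, so the data do not show that MYC RNA stayed level.

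MYCL, the family member first found in lung cancer, had a signal of 130.6, 178.8 and 123.1 in Control and of 28.1, 27.2 and 50.8 with DCC-2036. All treated libraries lay below all Control libraries. The log2 fold change was -2.04 ± 0.27 (SE), adjusted p = 0.00141 (limma), and the call held without any 1 library (-2.32 to -1.87). MYCL RNA was thus a minor part of the MYC family in these cells: per kilobase of transcript, the Control mean was 85.4 for MYCL and 1940 for MYC. MYCN, the family member known from neuroblastoma, was 0.0, 2.7 and 0.9 in Control and listed at 0 with DCC-2036 in each library, too low to be tested.

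MAX, a partner shared by MYC, MXD and MNT proteins, had a signal of 610.1, 654.0 and 754.0 in Control and of 1099, 1286 and 1538 with DCC-2036. The groups stood well apart, and the treated mean was 1308 ± 220 against 673 ± 73.7 (SD). The log2 fold change was 0.95 ± 0.16 (SE), adjusted p = 0.00288 (limma). The size hardly moved when a library was left out (0.83 to 1.07), but the call was lost without Control replicate 1 (adjusted p = 0.0143), Control replicate 2 (0.0144) or DCC-2036 replicate 2 (0.013).

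MLX had the lowest adjusted p of the 9 tested members. Its signal was 1659, 1828 and 1932 in Control and 573.4, 502.3 and 503.3 with DCC-2036. Every treated library was below every Control library, and the treated libraries differed little among themselves. The log2 fold change was -1.78 ± 0.11 (SE), adjusted p = 0.00021 (limma), and it stood at rank 130 by p among the 12725 genes. The call held without any 1 library (-1.84 to -1.73). In the GENCODE 29 annotation of GRCh38, MLX lies at chr17:42567072-42573239 on the plus strand, and 770 of the 2586 exon bases of its kept transcript (29.8%) are shared with PSMC3IP, a recombination cofactor on the opposite strand. The labels name a library kit and no strand setting, so reads from that stretch cannot be assigned to either gene here. PSMC3IP had a signal of 429.6, 478.6 and 473.1 in Control and of 235.5, 290.0 and 320.8 with DCC-2036, a log2 fold change of -0.71 (adjusted p = 0.00544, limma). How reads of the shared stretch were divided between these genes is unknown, and the part of PSMC3IP in the fall of MLX was not tested.

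MXI1, an MXD-type repressor that competes with MYC for MAX, had a signal of 594.3, 571.6 and 524.5 in Control and of 992.6, 1208 and 1548 with DCC-2036. No treated library came near the Control range, and the treated mean was 1250 ± 280 against 563 ± 35.6 (SD). The log2 fold change was 1.13 ± 0.18 (SE), adjusted p = 0.00233 (limma). It stayed between 0.96 and 1.28 when libraries were left out, but the adjusted p rose to 0.0102 without Control replicate 1, 0.0111 without Control replicate 2, 0.0124 without Control replicate 3 and 0.0106 without DCC-2036 replicate 2, all just past the limit.

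MXD4, a repressor linked to differentiation, had a signal of 291.5, 286.2 and 294.5 in Control and of 565.0, 470.7 and 323.5 with DCC-2036. The groups did not overlap, yet DCC-2036 replicate 3 lay close to Control. The log2 fold change of 0.60 ± 0.21 (SE) was not called (adjusted p = 0.0411, limma). It was 0.82 with an adjusted p of 0.00157 once DCC-2036 replicate 3 was left out, 0.42 (0.0727) without DCC-2036 replicate 1 and 0.41 (0.179) with libraries scaled to equal totals.

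MNT, the most widely expressed MAX-binding repressor, had a signal of 349.8, 323.9 and 328.5 in Control and of 261.3, 240.4 and 257.9 with DCC-2036. The groups did not overlap, and the treated mean was 75.7% of Control. The log2 fold change of -0.40 ± 0.10 (SE) fell just short of the limit (adjusted p = 0.0119, limma). Scaling moved it either way: it was -0.59 with an adjusted p of 0.00445 at equal totals, -0.32 (0.0302) by the median of ratios and -0.29 (0.0422) by the upper quartile. An antisense gene, AC006435.1, shares 1065 exon bases with MNT and is not in the table. The same holds for AL033527.2 with MYCL (226 exon bases) and AL139022.1 with MAX (108). Their part in the values of these members was not tested.

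MXD1, the founding MXD protein, was the lowest repressor, with a signal of 57.4, 45.4 and 59.9 in Control and of 36.4, 58.4 and 69.7 with DCC-2036. The groups overlapped fully, the log2 fold change was -0.02 (95% confidence interval -0.63 to 0.58) and its sign turned under other scalings.

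MXD3 behaved differently by transcript. The transcript with the higher signal, NM_001142935.1, was 1703, 1884 and 1923 in Control and 1724, 2012 and 2279 with DCC-2036. These groups overlapped, with a log2 fold change of 0.12 (95% confidence interval -0.20 to 0.44) and an adjusted p of 0.461 (limma). The other transcript, NM_031300.3, was 356.5, 304.6 and 290.7 in Control and 170.0, 135.4 and 145.5 with DCC-2036. Its groups did not overlap, and its log2 fold change was -1.07 ± 0.13 (SE), adjusted p = 0.00108 in the limma fit over 32323 transcripts, a call that held without any 1 library (-1.16 to -0.99). As a share of the first transcript it went from 17.3% to 7.5%. The log2 ratio of the pair differed by -1.20 between groups, with p = 0.1 in an exact two-sided permutation test, the smallest that 3 against 3 libraries can give (adjusted p = 0.16 over 8 transcript pairs chosen after their values were seen).

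The gene models of the MXD3 transcripts differ in what they share with a neighbour. On chromosome 5 of GRCh38, the GENCODE 29 model of NM_001142935.1 runs from 177305500 to 177311898 on the minus strand, and 1158 of its 2269 exon bases (51%) are also exon of PRELID1, a mitochondrial lipid transfer gene on the opposite strand. The model of NM_031300.3, from 177307205 to 177312309, shares 0 exon bases with PRELID1. PRELID1 had a signal of 3610, 3953 and 4058 in Control and of 3728, 4459 and 5120 with DCC-2036, a log2 fold change of 0.19 (adjusted p = 0.288, limma). Without a stated strand setting, reads of MXD3 and PRELID1 in the shared stretch cannot be told apart, and the flat MXD3 value may hold PRELID1 reads. If MXD3 is read by NM_031300.3, a choice made after the values were seen, 3 of the 9 tested members were lower, against 22.7% of all genes.

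The members had 29 transcripts in the table, of which 25 were tested. Called higher were 8 of the 25 (32%), against 19.7% of all transcripts tested, and called lower were 6 (24%), against 22.4%. All 3 MLX transcripts fell, with log2 fold changes of -1.78, -1.78 and -1.68, and all 3 MXI1 transcripts rose, by 1.13, 1.03 and 1.06. Transcripts of 1 gene share exons and reads and are not separate measurements: the 3 MAX transcripts with the highest signal had nearly equal values in every library.

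Among the 8 MAX transcripts, 5 rose. The minor transcript NM_197957.3 had a signal of 20.6, 31.8 and 26.7 in Control and of 48.9, 66.1 and 92.9 with DCC-2036, which is 3.92% and 5.3% of the main transcript. Its log2 fold change was 1.33 (adjusted p = 0.00541, limma), and its call was lost without Control replicate 1, 2 or 3 or DCC-2036 replicate 2 (adjusted p up to 0.0214). The other 3 did not pass the test. NM_145114.2 had a log2 fold change of 1.02 without overlap (adjusted p = 0.0114, limma) and was called without DCC-2036 replicate 1, whereas NM_001271068.1 and NM_001271069.1 overlapped between groups, at 0.20 and 0.43. Of the 3 MYCL transcripts, NM_005376.4, at 35.7, 45.0 and 31.1 in Control and 9.4, 13.1 and 22.9 with DCC-2036, had a log2 fold change of -1.32 that was not called (adjusted p = 0.0109, limma). It was called without DCC-2036 replicate 3.

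The 5′ ends of the network genes were searched for the E-box CACGTG, which reads the same on both strands, in RefSeq windows of GRCh38.p14 that run from 250 bases before to 50 bases after each annotated start. The E-box is the site that the network's proteins bind, and the windows with a match are shown because they include that of MLX, which had the lowest adjusted p of the members. Windows were found for 9 of the 10 members. MYC had none, so its 5′ end was not searched. The windows of 3 members held the motif (33.3%), against 12.6% of the tested genes with a window and 8.77% of all genes in the RefSeq table. Counted by window, 3 of the members' 12 windows held it (25%), against 7.26% of all 35116 windows. The matches were in MLX (chr17:42566850-42567149, plus strand), MNT (chr17:2401011-2401310, minus strand) and MXD4 (chr4:2262060-2262359, minus strand). ARRDC4, a MondoA and MLX target described below, also held 1 match (chr15:97960453-97960752, plus strand). No match was found in the windows of TXNIP, the other such target, or of the partners MLXIP, MLXIPL and MGA. The sequences are printed 5′ to 3′ in the direction of the gene with the motif in capitals:
MLX: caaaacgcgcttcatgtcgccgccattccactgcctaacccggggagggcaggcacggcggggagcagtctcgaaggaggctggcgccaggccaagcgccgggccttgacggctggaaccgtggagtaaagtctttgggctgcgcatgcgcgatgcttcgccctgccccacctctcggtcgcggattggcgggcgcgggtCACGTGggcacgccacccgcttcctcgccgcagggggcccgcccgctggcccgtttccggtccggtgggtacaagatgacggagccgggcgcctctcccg
MNT: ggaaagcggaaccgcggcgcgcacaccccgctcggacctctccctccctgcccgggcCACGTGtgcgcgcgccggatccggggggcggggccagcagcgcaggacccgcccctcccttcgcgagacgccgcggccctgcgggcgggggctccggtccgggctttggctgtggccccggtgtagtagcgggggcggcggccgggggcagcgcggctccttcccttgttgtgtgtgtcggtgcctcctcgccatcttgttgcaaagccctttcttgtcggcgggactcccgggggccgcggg
MXD4: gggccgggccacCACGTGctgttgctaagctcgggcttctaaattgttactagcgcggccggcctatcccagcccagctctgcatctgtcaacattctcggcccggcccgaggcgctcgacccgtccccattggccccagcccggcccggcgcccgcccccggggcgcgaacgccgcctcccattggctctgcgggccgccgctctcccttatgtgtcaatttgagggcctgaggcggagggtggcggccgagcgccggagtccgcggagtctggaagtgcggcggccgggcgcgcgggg
ARRDC4: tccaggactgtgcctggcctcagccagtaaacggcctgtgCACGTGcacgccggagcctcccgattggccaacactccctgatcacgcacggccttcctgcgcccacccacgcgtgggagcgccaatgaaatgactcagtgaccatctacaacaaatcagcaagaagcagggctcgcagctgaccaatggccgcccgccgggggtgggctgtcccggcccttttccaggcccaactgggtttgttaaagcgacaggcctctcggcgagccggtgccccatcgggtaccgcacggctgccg

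Counted from the annotated start, the motif began at position -50 in MLX, -193 in MNT, -238 in MXD4 and -210 in ARRDC4. The 3 members with a match moved differently: MLX fell, and MNT and MXD4, of opposite sign, were not called. MAX, MXI1 and MYCL, which were called, had no CACGTG in these windows. Both MAX windows, the nearer at chr14:65102234-65102533, lie inside the span of its kept transcript, which starts at 65102544 on the minus strand. The MXD3 window (chr5:177312703-177313002, minus strand) lies before the starts of both MXD3 models, at 177311898 and 177312309. The bases just before the starts of these models were therefore not searched. A match is a description of the letters only, and binding was not measured here.

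The levels of the members were compared per kilobase of their GENCODE 29 transcript model. In Control, MYC stood first at 1940 ± 78.6 per kilobase (SD, n = 3), followed by MXD3 at 809, MLX at 699, MAX at 314 ± 34.4, MXI1 at 232, MYCL at 85.4, MXD4 at 71.7, MNT at 66.9, MXD1 at 9.71 and MYCN at 0.465. The ranges of neighbours did not overlap between MYC and MXD3 (750 to 847), between MXD3 and MLX (642 to 747), between MLX and MAX (285 to 352), between MAX and MXI1 (216 to 245) and between MXI1 and MYCL (72.9 to 106). MXD4 (70.6 to 72.6) and MNT (64.8 to 70.0) were also apart, and MYCL and MXD4 nearly touched. The place of MXD3 rests on the transcript that overlaps PRELID1. Read by NM_031300.3, MXD3 was 196 to 240 per kilobase in Control and 91.3 to 115 with DCC-2036. The place of MAX in both groups rests on its kept transcript, of 2141 bases. NM_001320415.1, of 728 bases, had a nearly equal signal (Control mean 671 against 673) and would place MAX higher.

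With DCC-2036 the order changed in the middle. MAX, at 611 ± 103 per kilobase, and MXI1, at 515 ± 116, stood above MLX, at 204 ± 15.8, and the MLX range of 194 to 222 was below that of either. MAX (513 to 718) and MXI1 (409 to 639) overlapped and were not ordered. MYCL, at 21.0, went from the sixth place to the eighth, below MNT at 50.7 and MXD4 at 112. This change of place rests on its kept transcript, of 1688 bases. NM_001033082.2, of 3256 bases, had a nearly equal signal (Control mean 138 against 144). Read by it, MYCL would stand below MXD4 and MNT in Control as well.

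The summed level per kilobase of MYC, MYCN and MYCL over that of MXD1, MXD3, MXD4, MXI1 and MNT was 1.72, 1.66 and 1.74 in Control and 1.32, 1.53 and 1.98 with DCC-2036. The treated libraries lay on both sides of Control, so the balance of activators and repressors showed no direction at the RNA level. With MXD3 read by NM_031300.3 the ratio was 3.09, 3.43 and 3.75 in Control and 2.51, 3.12 and 4.01 with DCC-2036, again on both sides.

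The ratio of a member to MAX within a library does not depend on how libraries were scaled. The log2 ratio of MYC to MAX was 2.88, 2.78 and 2.67 in Control and 1.95, 2.12 and 2.43 with DCC-2036. All treated libraries were below all Control libraries, a difference of -0.61 between the means that comes with the rise of MAX. The ratio of MXI1 to MAX overlapped between groups (difference 0.18), so the pair rose by similar amounts.

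MXD3, MXD1, MNT, MLX and MYCL were all lower relative to MAX with DCC-2036, in every treated library against every Control library, by differences of -0.83, -0.98, -1.35, -2.73 and -3.02. The MXD4 ratio overlapped (difference -0.35). These ratios are descriptions without a test, and those of members whose own RNA overlapped between groups reflect the MAX value in the denominator.

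**Figure D2:**
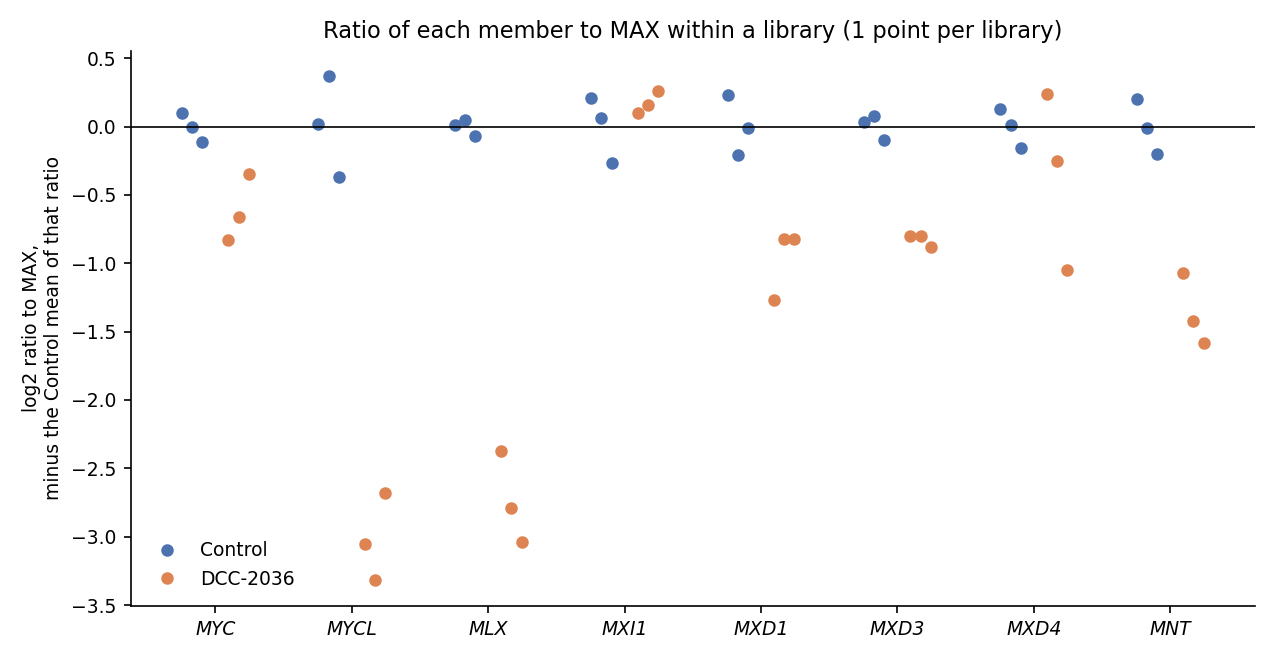
Log2 ratio of 8 members to MAX in the same library (vertical axis, minus the Control mean of that ratio), 1 point per library, blue for Control and orange for DCC-2036. Relative to MAX, the means of MYCL and MLX differ between groups by -3.02 and -2.73 and MXI1 stays within the Control range or close to it.

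The other partners were read from the same fit. MGA, a large MAX partner of Polycomb-type complexes, had a signal of 1357, 1183 and 1159 in Control and of 1577, 1404 and 994.3 with DCC-2036, which overlapped (log2 fold change 0.08). MLXIP, which encodes MondoA, had 2074, 1881 and 2043 in Control and 2154, 2137 and 2025 with DCC-2036, which also overlapped (log2 fold change 0.08, 95% confidence interval -0.16 to 0.31). Neither passed the test, and the sign of both turned negative when libraries were scaled to equal totals.

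MLXIPL, which encodes the glucose-responsive ChREBP, had a signal of 277.4, 298.0 and 218.8 in Control and of 142.1, 121.4 and 167.2 with DCC-2036. It fell in all treated libraries, with a log2 fold change of -0.88 ± 0.17 (SE) and an adjusted p of 0.00538 (limma). The call was lost without Control replicate 1 (adjusted p = 0.0235), Control replicate 2 (0.0231), DCC-2036 replicate 1 (0.0101) or DCC-2036 replicate 2 (0.0204), and also with upper-quartile scaling (0.0104) or with no filter on low values (0.0127). MLX and 1 of its 2 glucose-sensing partners thus fell together, while MLXIP did not move beyond its spread.

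Both textbook targets of MondoA and MLX were looked up. ARRDC4, an arrestin-type protein that restrains glucose uptake, had a signal of 47.1, 46.6 and 35.7 in Control and of 89.4, 119.2 and 196.7 with DCC-2036. It rose in all treated libraries, with a log2 fold change of 1.56 ± 0.29 (SE) and an adjusted p of 0.00453 (limma). The call was lost without Control replicate 1, 2 or 3 or DCC-2036 replicate 2 (adjusted p from 0.0151 to 0.0198), and with no filter on low values (0.011). TXNIP, the better known target, was low, at 9.4, 10.6 and 8.2 in Control and 14.4, 5.5 and 4.9 with DCC-2036, and was not tested.

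**Figure D3:**
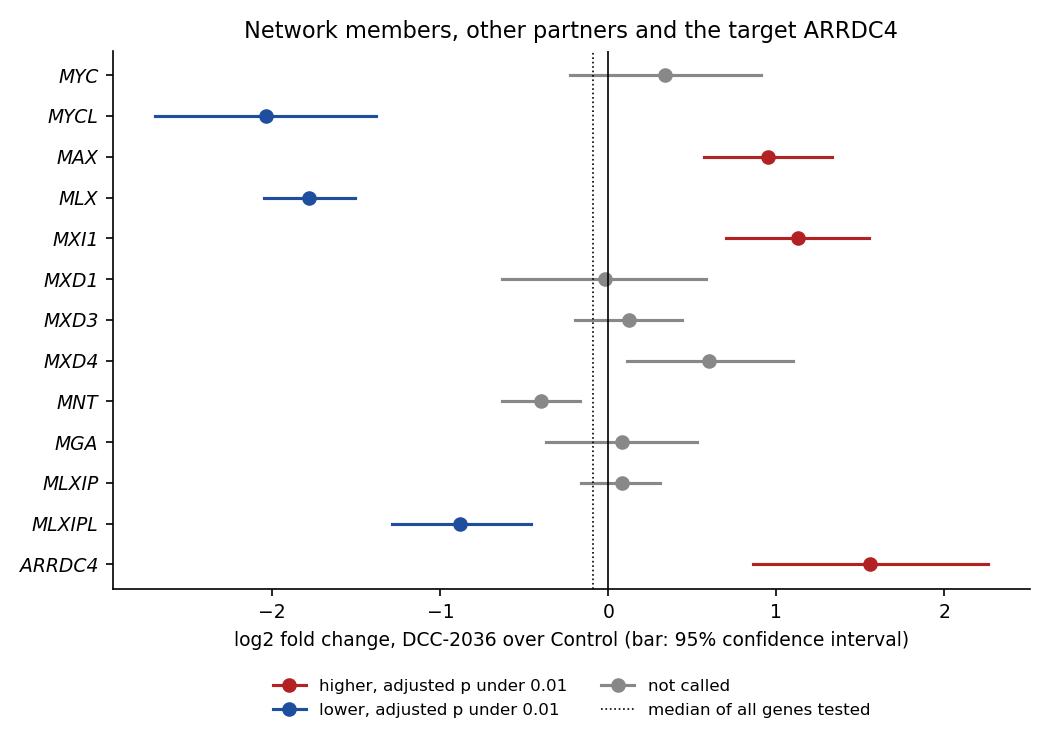
Log2 fold change of DCC-2036 over Control (horizontal axis, point) with its 95% confidence interval (bar) for the 9 tested members, the partners MGA, MLXIP and MLXIPL and the target ARRDC4. The dotted line marks the median of all genes tested, -0.09; MAX, MXI1 and ARRDC4 were called higher and MYCL, MLX and MLXIPL lower.

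Genes known to be activated by MYC were read in 3 lists. Genes of ribosome assembly and the nucleolus went both ways, 11 of 36 tested higher and 11 lower (30.6% each, against 19.2% and 22.7% of all genes), with a median log2 fold change of 0.00. RCL1 and NOP2, which process and modify ribosomal RNA, rose by 1.44 and 0.76, and WDR74 and NOLC1 by 0.95 and 0.75. MYBBP1A, a nucleolar protein that binds MYB, fell by 1.95 on the log2 scale, from 3509, 3540 and 3817 in Control to 1004, 921.0 and 884.4, and GNL3, PPAN and MRTO4 had log2 fold changes of -1.22, -1.16 and -1.10. NCL, the abundant nucleolin, overlapped between groups (log2 fold change -0.08). The calls of NOP2, MYBBP1A, GNL3 and PPAN held in every alternative tried. Without any 1 Control library or DCC-2036 replicate 2, 1 to 2 genes of the list were called higher and 5 to 7 lower. The calls over all genes also fell in number in those 4 fits, in which 7.39% to 8.41% of all genes were higher and 12.1% to 13.6% lower.

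In the list of metabolism and transport, 7 of 32 tested genes were higher (21.9%) and 8 lower (25.0%), shares near the 19.2% and 22.7% of all genes, with a median of 0.10. ODC1, the first enzyme of polyamine synthesis and a classic MYC target, had a signal of 12567, 14022 and 14387 in Control and of 20007, 23240 and 25521 with DCC-2036, a log2 fold change of 0.74 (adjusted p = 0.00333, limma). The amino acid transporter subunit SLC3A2 rose by 1.12, the glycolytic enzyme HK2 by 1.11, the purine enzyme PPAT by 1.04 and the mitochondrial helicase SUPV3L1 by 0.83. The nucleoside transporter SLC29A2 (-2.10), the pyrimidine enzyme CAD (-1.63), the folate carrier SLC19A1 (-1.32) and TMEM97 (-1.04) fell. The calls of SLC3A2, SLC29A2 and TMEM97 held in every alternative tried. Without any 1 Control library or DCC-2036 replicate 2, 1 gene of the list was called higher and 3 to 4 lower, in fits where 7.39% to 8.41% of all genes were higher and 12.1% to 13.6% lower.

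The third list, cell cycle, translation and others, leaned down: 2 of 30 tested genes were higher (6.67%, against 19.2% of all genes) and 14 lower (46.7%, against 22.7%), with a median of -0.62. CCNB1, the mitotic cyclin, fell from 6323, 6768 and 6830 to 2114, 1964 and 1862, a log2 fold change of -1.75 (adjusted p = 0.000193, limma). E2F1, which drives entry into S phase, fell by 1.47 on the log2 scale, the centriole kinase PLK4 by 1.46 and the RNA modifier PUS1 by 1.44. CDK4, the G1 kinase, had 3147, 3410 and 3645 in Control and 1702, 1857 and 1887 with DCC-2036 (log2 fold change -0.90, adjusted p = 0.000923, limma). RIOX2 (0.71) and PRMT1 (0.45) rose, the latter with a call lost in 10 of 15 alternatives. CCNB1, E2F1 and PLK4 are also known to vary with the cell cycle itself. Without any 1 Control library or DCC-2036 replicate 2, 0 genes of the list were higher and 9 to 11 lower, against 7.39% to 8.41% and 12.1% to 13.6% of all genes. Without DCC-2036 replicate 1 or 3, 1 to 2 were higher and 16 lower, against 19.8% to 21.3% and 25.9% to 28.0% of all genes.

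The activated genes were also split by the E-box. Windows were found for 79 of the 98 tested genes of these 3 lists, and 38 held CACGTG. Among the 38, 7 were higher and 14 lower (18.4% and 36.8%), with a median log2 fold change of -0.22. Among the 41 without it, 9 were higher and 15 lower (22% and 36.6%), with a median of 0.03. Among all tested genes, those with the motif were higher in 19.2% and lower in 23.7%, with a median of -0.11, and those without it in 18.9% and 22.9%, with a median of -0.09. The share with the motif was 50% for ribosome assembly, 55.6% for metabolism and transport and 37.5% for the third list, all above the 12.6% of tested genes.

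Of 17 tested genes known to be repressed by MYC, 0 were called higher and 1 lower (limma), against 19.2% and 22.7% of all genes, with a median of 0.26. At an unadjusted p under 0.05, 7 were higher and 2 lower, against 30.5% and 36.1% of all genes. Limma with a trend called 7 higher and 1 lower, against 22.6% and 26.0% of all genes. CEBPA, a differentiation factor, was the 1 that fell (-1.23, adjusted p = 0.00216, limma), and its call was lost without any 1 of the Control replicates or without DCC-2036 replicate 2. The cell cycle inhibitor CDKN1A, at 1248, 1257 and 1359 in Control and 2180, 2163 and 1579 with DCC-2036, did not overlap but was not called (log2 fold change 0.60, adjusted p = 0.0142, limma). NDRG1, a stress-induced gene that MYC represses, had 2203, 1865 and 2254 in Control and 2597, 3345 and 3962 with DCC-2036 (0.63, adjusted p = 0.021, limma). CDKN1B, another cell cycle inhibitor of the list, went the other way without overlap and was not called (-0.40, adjusted p = 0.0205, limma). The count also depended on single libraries: without DCC-2036 replicate 1, 5 of 16 were higher and 1 lower, against 21.3% and 28.0% of all genes, and without DCC-2036 replicate 3, 6 of 17 were higher and 2 lower, against 19.8% and 25.9%.

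Among 17 tested cofactors of MYC and MAX, 4 rose (23.5%) and 3 fell (17.6%), near the 19.2% and 22.7% of all genes, with a median of 0.02. ZBTB17, which encodes MIZ1, the factor through which MYC represses genes, had a signal of 662.8, 673.4 and 709.7 in Control and of 1617, 2092 and 2204 with DCC-2036, a log2 fold change of 1.52 (adjusted p = 0.000466, limma). The elongation cyclin CCNT1 rose by 0.99 and WDR5, a chromatin anchor of MYC, by 0.82. The acetyltransferase KAT5 (-1.26) and the helicases RUVBL1 (-0.69) and RUVBL2 (-0.53), which sit in 1 complex, fell. The calls of ZBTB17 and CCNT1 held in every alternative tried, whereas those of WDR5, KAT5, RUVBL1 and RUVBL2 did not. Without Control replicate 2 or 3 or DCC-2036 replicate 2, 3 genes were higher and 0 lower, against 7.39% to 7.97% and 12.1% to 13.6% of all genes in those fits.

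Of 13 tested corepressor genes that MXD and MNT proteins recruit, 4 rose (30.8%) and 1 fell (7.69%), against 19.2% and 22.7% of all genes, with a median of 0.22. The deacetylases HDAC2 and HDAC1 rose by 1.37 and 0.56, the corepressor NCOR1 by 1.45 and the histone chaperone RBBP7 by 0.61, and the SIN3 subunit SAP30 fell by 1.25 on the log2 scale. HDAC2 went from 1604, 1569 and 1491 to 3026, 4000 and 5357, without overlap. None of these 5 calls held when each Control library was left out in turn: without any 1 of the 3, 0 genes of the list were higher and 0 lower, against 7.89% to 8.41% and 12.1% to 12.7% of all genes. Without DCC-2036 replicate 2, 1 was higher and 0 lower, against 7.39% and 13.6%.

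Genes that set the stability of MYC protein were also read, since protein was not measured in these libraries. Of 20 tested, 7 rose (35.0%) and 4 fell (20%), against 19.2% and 22.7% of all genes, with a median of 0.33. GSK3B, the kinase that marks MYC for degradation, had a signal of 1658, 1351 and 1521 in Control and of 3002, 3077 and 3072 with DCC-2036, a log2 fold change of 1.02 (adjusted p = 0.000722, limma). The phosphatase subunits PPP2CA and PPP2R5A rose by 1.13 and 0.72 and the deubiquitinase USP36, which protects MYC, by 1.02. KIAA1524, the CIP2A inhibitor of that phosphatase, fell from 1192, 1249 and 1096 to 507.0, 456.8 and 444.7 (-1.33, adjusted p = 0.000326, limma). The ubiquitin ligase genes FBXO32, TRIM32 and STUB1 had log2 fold changes of -2.22, -1.51 and -0.60. The ligase genes SKP2 and BTRC went the other way, by 0.63 and 0.53 (adjusted p = 0.00306 and 0.0036, limma).

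FBXW7, the ligase that takes up GSK3-marked MYC, had 310.3, 323.3 and 271.3 in Control and 417.1, 546.6 and 778.5 with DCC-2036. Its groups did not overlap but it was not called (log2 fold change 0.90, adjusted p = 0.0149, limma). AURKA, which shields MYC proteins, was not called either (-0.20, adjusted p = 0.134). The calls of GSK3B, USP36, KIAA1524 and FBXO32 held in every alternative that tested them, and without any 1 Control library or DCC-2036 replicate 2 the list held 2 to 3 genes higher and 2 lower, against 7.39% to 8.41% and 12.1% to 13.6% of all genes.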

How the data were processed

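RNA of 6 LoVo libraries, 3 Control and 3 DCC-2036, was grouped by sample titles. The authors deposited 1 table of 45006 transcripts with a normalized signal per library, adjusted by them to a common depth; aligner, build and strand setting are not given in the sources used here. Only the signal columns of the 6 libraries were used, and no comparison made by the authors was taken over. Read counts were not recovered from the signal.

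For each symbol, the transcript of highest mean signal was kept. Genes that reached 10 in 3 or more libraries were tested as log2(value + 1) with limma 3.58.1 in R 4.3.3, two-sided, with Benjamini-Hochberg adjustment and a limit of 0.01, and a second fit took all transcripts as rows. Fold changes on this scale understate those of low genes. With 3 against 3 libraries an exact permutation test cannot go below p = 0.1. Exon overlaps came from GENCODE 29 through RefSeq accessions and promoter windows from RefSeq (GRCh38.p14). Scripts ran in Python 3.11.15, numpy 2.4.6, pandas 2.3.3, scipy 1.17.1 and matplotlib 3.10.9. On simulated data the fit called 0% of log2 changes of 0.5, 27.7% of 1 and 71.9% of 2, with 0 false calls. A small change that was not called may therefore have been missed.

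The members, the lists and the naming rule were chosen with earlier results of these data known. Named are all members and their other partners and targets, up to 4 called genes without overlap and with the largest change per list and direction, the 5 genes nearest to MYC, and a few best known list genes whatever their values; 1 gene that the rule names is not reported here. Alternatives were scalings, filters, pseudocount, a trend, sums over transcripts, a replicate block, left-out libraries and other limits. DESeq2 and TMM alternatives need counts and were not run.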

Additional observations from a re-analysis of the deposited data

How the results depend on the processing

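Replicate numbers are shared by both groups, but same-numbered libraries did not deviate together (correlations 0.081, -0.035 and -0.003 over 12725 genes), so they pair nothing known. With a replicate block, 1202 genes were higher and 1909 lower, 1 member (MAX) and 5 member transcripts were higher, and MXI1 had an adjusted p of 0.0117 (limma). The block changed no other call among the 10 members, but ended those of MLXIPL (0.0248) and ARRDC4 (0.0183).

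Leaving out 1 library, with 5 left, gave 928 to 2675 genes higher and 1514 to 3507 lower, 0 to 3 members higher, 2 lower each time, and 0 to 9 member transcripts higher. The lowest counts came without a Control replicate or DCC-2036 replicate 2. Requiring in addition a log2 fold change of at least 1 in size, 944 genes were higher and 1930 lower.

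Signs turned only for members and partners that were not called. MXD1 was 0.057 scaled by the median of ratios, 0.086 by the upper quartile, and -0.22 to 0.24 with libraries left out. MXD3 was -0.071 scaled to equal totals, -0.0057 summed over transcripts and -1.07 by NM_031300.3. With equal totals MGA and MLXIP were both -0.11, and MGA ranged from -0.058 (without DCC-2036 replicate 1) to 0.27 with libraries left out. The cause was not tested.

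The 47 called list genes named by the rule kept their direction in every one of 15 alternatives that tested them, and 20 kept the call in each. Unknown depth, 3 libraries per group and unstated strand limit all values here.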

Other observations

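Genes that control MYC RNA were read as a further list. Of 15 tested, 1 rose (6.67%) and 3 fell (20%), against 19.2% and 22.7% of all genes, and the groups did not overlap in 12 of the 15 (80%), against 71.1% of all genes. The median log2 fold change was -0.09, with members on both sides. CTNNB1, the Wnt effector β-catenin that drives MYC transcription in colon, went from 9070, 9409 and 9079 in Control to 15430, 18349 and 21434 with DCC-2036, without overlap (0.99, adjusted p = 0.00166, limma). HNRNPD, which encodes AUF1, a protein that binds MYC RNA, went from 7299, 7273 and 7572 to 3013, 2054 and 1876 (-1.70, adjusted p = 0.000744). Both calls held in every alternative tried. TCF7, a partner of β-catenin, and ZFP36, which destabilizes RNA, had log2 fold changes of -1.05 and -0.97 with calls that were lost without any 1 Control replicate or DCC-2036 replicate 2, with no filter on low values and with a replicate block. The TCF7 call was also lost with upper-quartile scaling and when transcripts were summed.

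The genes whose centred log2 profile over the 6 libraries was nearest to that of MYC were TBCC, TMEM52, ELMO3, NFYB and SLC39A11, with root mean square differences of 0.049, 0.067, 0.075, 0.075 and 0.080. TBCC, a tubulin folding cofactor, had a signal of 381.7, 379.2 and 418.9 in Control and of 383.9, 513.1 and 758.4 with DCC-2036. As for MYC, DCC-2036 replicate 3 was the highest of the 6 libraries in each of these 5 genes. They were chosen for that profile, so this adds no separate observation. In all, 15 genes lay within 0.1 of MYC, and 6 libraries cannot single out 1 of them.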
